A study of Mus musculus with 6 samples.

Results

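Immediate early genes are transcribed within minutes of a stimulus from factors already present in the cell. Here 35 genes were followed in mouse hepatocytes exposed to a static magnetic field. They comprise early genes and 7 feedback inhibitors, the phosphatases and Sprouty proteins that shut MAP kinase signalling down again. The genes were chosen by name, and all 35 were found among the 23886 gene identifiers of each file. The data are poly(A) RNA sequencing of AML12 cells in 6 libraries. Control 2, 3 and 4 were grown without treatment, and the field was applied to SMF 1, 2 and 3. Neither field strength nor length of exposure is given in the sources used here. The series title names calcium influx, a signal that many of these genes answer to, so the comparison asks whether their transcripts differ between exposed and untreated cells.

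AML12 is a hepatocyte line from the liver of a mouse that carries a human transforming growth factor alpha transgene under the metallothionein promoter, and both groups are this line. The submitters call the cells wild type and name no further gene change. Growth factors of that kind act through the epidermal growth factor receptor and the RAS, RAF and ERK kinases. ERK phosphorylates partners of serum response factor, which binds the CArG box of early gene promoters, while calcium and cyclic AMP act through CREB at the cyclic AMP response element, the CRE. Their products include the FOS and JUN proteins, which pair as the transcription factor AP-1, and the DUSP phosphatases, which remove phosphate from ERK, JNK or p38. Early gene transcripts are short-lived, so their level follows the signal of the preceding minutes to hours.

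Library totals ran from 15514530 to 18200516 reads and overlapped between the groups. The Pearson correlation of log2(FPKM + 1) across 11114 genes was 0.9911 to 0.9927 within groups and 0.9865 to 0.9915 between them, where genes are not independent replicates. Nothing in the labels says that the libraries of a group came from separate cultures, so p-values measure the spread between these libraries. Among 12 hepatocyte markers, 11 had a mean of at least 1 FPKM (fragments corrected for the length of the gene and the size of the library), with Hnf4a at 86.97 to 95.49 FPKM and Alb at 26.25 to 34.13. Other hepatocyte markers were low, with Apoa1 at 0.178 to 0.585 FPKM, Cebpa at 0.78 to 1.499 and Afp at 1.145 to 1.95. The bile duct keratin Krt19 was also abundant, at 1024 to 1163 FPKM. Of the other bile duct markers, Krt7 stood at 58.82 to 65.15 FPKM, Sox9 at 8.849 to 10.42 and Epcam at 0 to 0.0268. Summed markers of endothelial cells reached at most 0.169 FPKM in any library and those of stellate cells and fibroblasts at most 1.92, with Col1a2 and Dcn at 0. For macrophages and leukocytes the sum was 2.99 to 4.33 FPKM in untreated libraries and 3.40 to 3.73 in exposed libraries. In such bulk samples fewer expressing cells and less RNA per cell cannot be told apart.

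Because calcium and growth factor signals are known to act at the CRE and the CArG box, the sequence upstream of the start is given for the 4 most abundant genes with a CRE core or a CArG box in the 250 bases before a RefSeq start on build GRCm38.p6. Capitals mark the CRE core, TGACG on the printed strand or CGTCA for the other, both of which were searched. In Btg2 and in the first Maff start the cores of both strands overlap in the full CRE, TGACGTCA.
Junb, chr8:84978749-84978998, minus strand: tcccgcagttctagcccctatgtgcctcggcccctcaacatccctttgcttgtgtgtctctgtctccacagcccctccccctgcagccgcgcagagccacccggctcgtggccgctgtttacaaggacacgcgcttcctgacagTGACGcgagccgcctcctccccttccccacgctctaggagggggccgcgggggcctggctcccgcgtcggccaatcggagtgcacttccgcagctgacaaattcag
Maff, chr15:79347270-79347519, plus strand: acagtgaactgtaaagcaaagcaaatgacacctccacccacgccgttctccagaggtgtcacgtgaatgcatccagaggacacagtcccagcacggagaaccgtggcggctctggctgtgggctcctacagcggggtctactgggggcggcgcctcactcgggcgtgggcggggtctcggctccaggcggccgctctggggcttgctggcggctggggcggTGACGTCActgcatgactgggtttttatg
Maff, chr15:79348152-79348401, plus strand: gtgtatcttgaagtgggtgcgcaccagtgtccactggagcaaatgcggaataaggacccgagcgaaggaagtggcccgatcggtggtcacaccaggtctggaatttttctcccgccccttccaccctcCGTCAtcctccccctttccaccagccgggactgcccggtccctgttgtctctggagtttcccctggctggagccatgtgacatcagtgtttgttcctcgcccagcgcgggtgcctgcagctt
Atf3, chr1:191183334-191183583, minus strand: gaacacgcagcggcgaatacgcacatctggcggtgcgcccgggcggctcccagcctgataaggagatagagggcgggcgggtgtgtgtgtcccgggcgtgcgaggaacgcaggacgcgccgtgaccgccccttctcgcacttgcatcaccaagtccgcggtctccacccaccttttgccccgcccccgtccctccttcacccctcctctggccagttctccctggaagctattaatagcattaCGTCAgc
Btg2, chr1:134079156-134079405, minus strand: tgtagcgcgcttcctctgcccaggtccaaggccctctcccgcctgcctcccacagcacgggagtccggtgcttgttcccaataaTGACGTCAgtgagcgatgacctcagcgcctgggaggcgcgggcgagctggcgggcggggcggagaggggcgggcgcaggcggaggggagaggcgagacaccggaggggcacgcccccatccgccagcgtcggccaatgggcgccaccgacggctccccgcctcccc
The capitals begin at position -106 in Junb, at -29 in the first Maff window and -122 in the second, at -7 in Atf3 and at -166 in Btg2, counted back from the start. In the RefSeq table, 26 of the 35 genes had a start, with 32 windows in all. The CRE core was in 17 of the 32 windows (14 genes), against 17.8% of all 32851 windows. The full CRE stood in 3 of the 32, those of Btg2, Dusp1 and Maff, against 1.55% of all windows. The CArG box was in 6 of the 32, from Dusp5, Egr2 and Zfp36, against 1.47%. Some genes count with several windows, and a match of letters is a description and not evidence of binding.

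The genes covered a wide range of levels. The mean over the 6 libraries was at least 10 FPKM for 14 genes, from 1 to 10 for 11 and under 1 for 10. Jund, Junb, Ier3, Ier2 and Myc led the order. The best-known early genes were among the lowest. Fos, the founding member of AP-1, measured 0.794, 0.748 and 1.198 FPKM in Control 2, 3 and 4 and 1.288, 0.91 and 0.639 in SMF 1, 2 and 3, from 27 to 48 reads. Egr1, a zinc finger factor induced by growth factors, measured 1.17, 0.51 and 0.65 FPKM in untreated libraries and 0.85, 0.44 and 0.48 in exposed libraries, from 34 to 87 reads. The groups overlapped for both, and Control 2 was the highest library for Egr1. Fosb stood between 0.0207 and 0.0868 FPKM, Egr2 between 0.113 and 0.213, Egr3 between 0.0533 and 0.232, and Arc between 0.148 and 0.231. Klf2, Nr4a3 and Dusp2 had 1 read in 1 library each and were at 0 in the other 5. For Arc the exposed libraries all lay below the untreated ones, on 7 to 12 reads a library. Counts this low cannot resolve a moderate difference, and nothing is read from them.

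**Figure D1:**
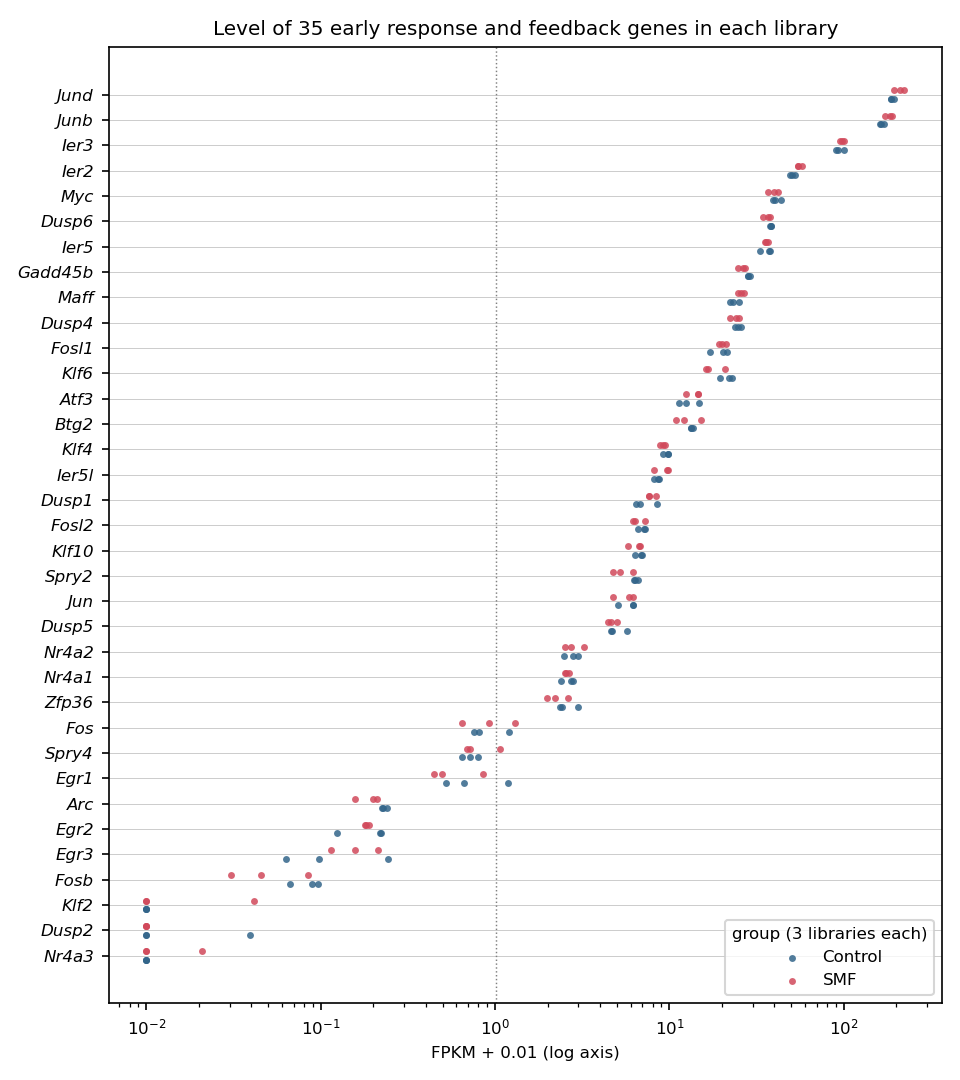
Level of each of the 35 genes in the 6 libraries, on a log axis of FPKM + 0.01, ordered by mean level, with Control (blue) and SMF (red) libraries as points and a dotted line at 1 FPKM. Jund and Junb lie at the top between 162.4 and 222 FPKM, and Fos, Egr1, Fosb and Arc lie near or under the line in both groups.

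Fold changes below are differences of log2(FPKM + 1), SMF minus Control, which understate the change of low genes, and p-values are from limma with Benjamini-Hochberg adjustment over all 11114 genes that reached 1 FPKM in at least 3 libraries. Of the 35 genes, 25 entered this test and 10 did not: Fos, Fosb, Egr1, Egr2, Egr3, Klf2, Nr4a3, Arc, Dusp2 and Spry4. None of the 25 passed an adjusted p of 0.05, the background being 0% of all genes tested. At an unadjusted p under 0.05, 7 of the 25 stood out (4 higher and 3 lower in exposed libraries), where 18% of all genes did. The groups did not overlap for Junb and Ier2, higher in exposed libraries, and for Spry2 and Gadd45b, lower, that is 2 of 25 in each direction, where the background was 11% higher and 12.7% lower. With limma-voom on reads recovered from the FPKM values, 2 of the 25 were called, Junb higher and Klf6 lower, where 4.57% of all genes were called (2.18% higher and 2.39% lower). The call for Junb was lost when any library but SMF 2 was left out (adjusted p up to 0.279), and that for Klf6 with any but Control 3 or SMF 2 (up to 0.272), and without SMF 2 Jund was called as well. In limma the 95% interval of every one of the 25 differences lay within 0.5 of 0 on the log2 scale, as did 92.5% over all genes. The bounds reached from -0.47 (Klf6) to 0.33 (Dusp1), so a change beyond a ratio of 0.7071 or 1.414 in FPKM + 1 lay outside the limma interval for each. By limma-voom 23 of the 25 intervals lay within the same bounds, those of Spry2 and Zfp36 reaching -0.53 and -0.51. The median difference was -0.05, with 10 of 25 above 0, and -0.01 over all genes, of which 46.7% were above 0.

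Among the JUN proteins, the DNA-binding partners of AP-1, Jund and Junb made up nearly all transcripts. Jund (ENSMUSG00000071076), which restrains growth in several cell types, measured 186.3, 195.4 and 185.7 FPKM in untreated libraries and 222, 193.1 and 210.8 in exposed libraries. Junb (ENSMUSG00000052837), whose CRE core is printed above, measured 162.4, 169.7 and 164.4 FPKM in untreated libraries and 185.1, 172.6 and 190.1 in exposed libraries. All 3 SMF libraries lay above every control for Junb, and SMF 2 lay within the control range for Jund. The mean of Junb was 165.5 ± 3.79 FPKM in untreated libraries and 182.6 ± 9.02 in exposed libraries (SD, n = 3), a log2 difference of 0.14 (SE 0.043, limma adjusted p = 0.186; limma-voom adjusted p = 0.0482). For Jund the log2 difference was also 0.14 (SE 0.053, adjusted p = 0.237; limma-voom 0.0753). After a correction within each library for the trend of values with GC content and gene length (the composition correction) these differences were 0.02 for Junb and -0.02 for Jund (limma adjusted p = 0.817 and 0.889). Junb is 62.6% and Jund 67.1% GC, and both are genes of 1 exon. The strand of a read is not known in these libraries: Junb shares 173 exonic bases with Prdx2 on the opposite strand (150.4 ± 3.58 FPKM in untreated libraries, 159.6 ± 3.33 in exposed libraries). Jund shares 877, or 52.6% of its exonic bases, with the antisense gene Gm11175 (2.83 ± 0.716 and 5.77 ± 1.45 FPKM), so Jund and Gm11175 are uncertain.

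Jun itself, the member that pairs with FOS in the classical early response, was far lower. It measured 6.18, 6.19 and 5.08 FPKM in untreated libraries and 5.84, 4.72 and 6.16 in exposed libraries, with overlapping groups (log2 difference -0.05, 95% interval -0.29 to 0.18). Jun was 1.61 ± 0.162% of the summed FPKM of the 3 JUN genes in untreated libraries and 1.401 ± 0.12% in exposed libraries. Junb took 45.9 ± 0.324% and 46.0 ± 1.05%, and Jund 52.5 ± 0.176% and 52.6 ± 1.05%. The sum of the 3 was 360.4 ± 9.38 FPKM without and 396.8 ± 23.1 with exposure, with SMF 2, at 370.4, under Control 3, at 371.3.

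FOS proteins cannot pair with each other and bind DNA only with a partner such as JUN. Their sum was 27.6 ± 2.30 FPKM in untreated libraries and 27.7 ± 0.230 in exposed libraries, and Fosl1 was most of it in both groups, at 71.0 ± 2.21% and 72.7 ± 2.57%. Fosl1 (FRA1), a late and stable FOS protein and an ERK target, measured 20.41, 21.4 and 17.16 FPKM in untreated libraries and 20.13, 19.27 and 21.02 in exposed libraries. Its groups overlapped, and the log2 difference was 0.04 (95% interval -0.14 to 0.22). Of its exonic bases 57.2% are shared with Ccdc85b on the opposite strand, so its value is uncertain. Fosl2 stood at 6.99 ± 0.325 and 6.57 ± 0.544 FPKM (log2 difference -0.08, 95% interval -0.23 to 0.08). Summed JUN over summed FOS transcripts gave a ratio of 13.1 ± 0.956 in untreated libraries and 14.3 ± 0.733 in exposed libraries, with SMF 2, at 13.5, under Control 4, at 14.2.

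Atf3 and Maff, which also form leucine zipper dimers, carry CRE cores printed above. Maff, a small MAF protein, measured 24.94, 23.19 and 22.36 FPKM in untreated libraries and 26.94, 24.61 and 25.68 in exposed libraries. SMF 2 lay under Control 2, and the log2 difference of 0.13 (95% interval 0.004 to 0.25) did not pass over all genes (limma adjusted p = 0.266). After the composition correction the difference of Maff was 0.05 (95% interval -0.05 to 0.15). Atf3, a stress-induced repressor, ran from 11.3 to 14.85 FPKM in untreated libraries and from 12.48 to 14.57 in exposed libraries, with overlapping groups (log2 difference 0.11, 95% interval -0.12 to 0.33).

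Of the 7 EGR and KLF zinc finger factors 3 were tested, and each of the 3 had a difference below 0. Klf6 (ENSMUSG00000000078), a growth-restraining factor, measured 21.84, 19.57 and 22.72 FPKM in untreated libraries and 16.73, 20.72 and 16.13 in exposed libraries. SMF 1 and SMF 3 lay below every control, while SMF 2 lay above Control 3. The means were 21.4 ± 1.625 and 17.9 ± 2.49 FPKM, a ratio of 0.836 and a log2 difference of -0.25 (SE 0.094, limma adjusted p = 0.23; limma-voom -0.26, adjusted p = 0.0394). After the composition correction the log2 difference of Klf6 was -0.18 (limma adjusted p = 0.39). Klf6 had the lowest GC content of the 25, at 42.4%. Klf4, a factor of epithelial differentiation, stood at 9.58 ± 0.303 and 9.13 ± 0.302 FPKM, and Klf10, a TGF-beta early response factor, at 6.74 ± 0.316 and 6.39 ± 0.555. Both pairs of groups overlapped.

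The orphan receptors Nr4a1 and Nr4a2, classical CREB targets, were low but measurable. Nr4a1 measured 2.73, 2.38 and 2.79 FPKM in untreated libraries and 2.498, 2.655 and 2.537 in exposed libraries (log2 difference -0.03, 95% interval -0.21 to 0.16). Nr4a2 ranged from 2.48 to 2.98 FPKM in untreated libraries and from 2.495 to 3.208 in exposed libraries (0.02, interval -0.20 to 0.24). The groups overlapped for both. Myc, the growth-driving factor, measured 40.57, 43.56 and 39.14 FPKM in untreated libraries and 41.97, 40.06 and 36.6 in exposed libraries, with a log2 difference of -0.05 (95% interval -0.19 to 0.08) and SMF 3 the lowest library.

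The IER proteins are small products of early genes, of which Ier3 is known as an ERK target that affects cell survival. Ier3 was the third gene in the order, at 100.7, 90.41 and 93.03 FPKM in untreated libraries and 97.34, 95.38 and 100.9 in exposed libraries, and its groups overlapped. Ier2 (ENSMUSG00000053560), a nuclear protein, measured 49.09, 52.35 and 50.39 FPKM in untreated libraries and 57.94, 54.42 and 54.59 in exposed libraries. Every SMF library lay above every control, at means of 50.6 ± 1.64 and 55.6 ± 1.99 FPKM and a log2 difference of 0.13 (SE 0.042, limma adjusted p = 0.19; limma-voom 0.167). After the composition correction the difference for Ier2, a gene of 1 exon at 60.9% GC, was 0.01 (limma adjusted p = 0.955). Ier5 stood at 36.0 ± 2.63 and 35.9 ± 0.695 FPKM, with a difference of -0.003 (95% interval -0.13 to 0.12), and Ier5l at 8.50 ± 0.294 and 9.22 ± 0.930.

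Gadd45b (ENSMUSG00000015312), a stress sensor that acts on p38 and JNK signalling, was lower in every SMF library than in any control, at 28.05, 29.15 and 28.23 FPKM against 24.78, 26.37 and 27.25. The means were 28.5 ± 0.589 and 26.1 ± 1.25 FPKM, a log2 difference of -0.12 (SE 0.045, limma adjusted p = 0.237). Its difference was -0.22 with the composition correction (unadjusted p = 0.00318, limma adjusted p = 0.232; limma-voom with the same correction -0.23, adjusted p = 0.0917). Gadd45b has 56.9% GC.

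Btg2 and Zfp36 act on messenger RNA, Btg2 by promoting the removal of poly(A) tails and Zfp36 by binding AU-rich elements of unstable transcripts. Btg2, which holds the full CRE printed above, measured 13.24, 13.6 and 13.25 FPKM in untreated libraries and 10.93, 12.13 and 15.11 in exposed libraries. The SMF libraries spread on both sides of the controls (SD 2.16 FPKM against 0.205), with a log2 difference of -0.08 (95% interval -0.30 to 0.15). Zfp36 stood at 2.58 ± 0.359 and 2.26 ± 0.310 FPKM.

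**Figure D2:**
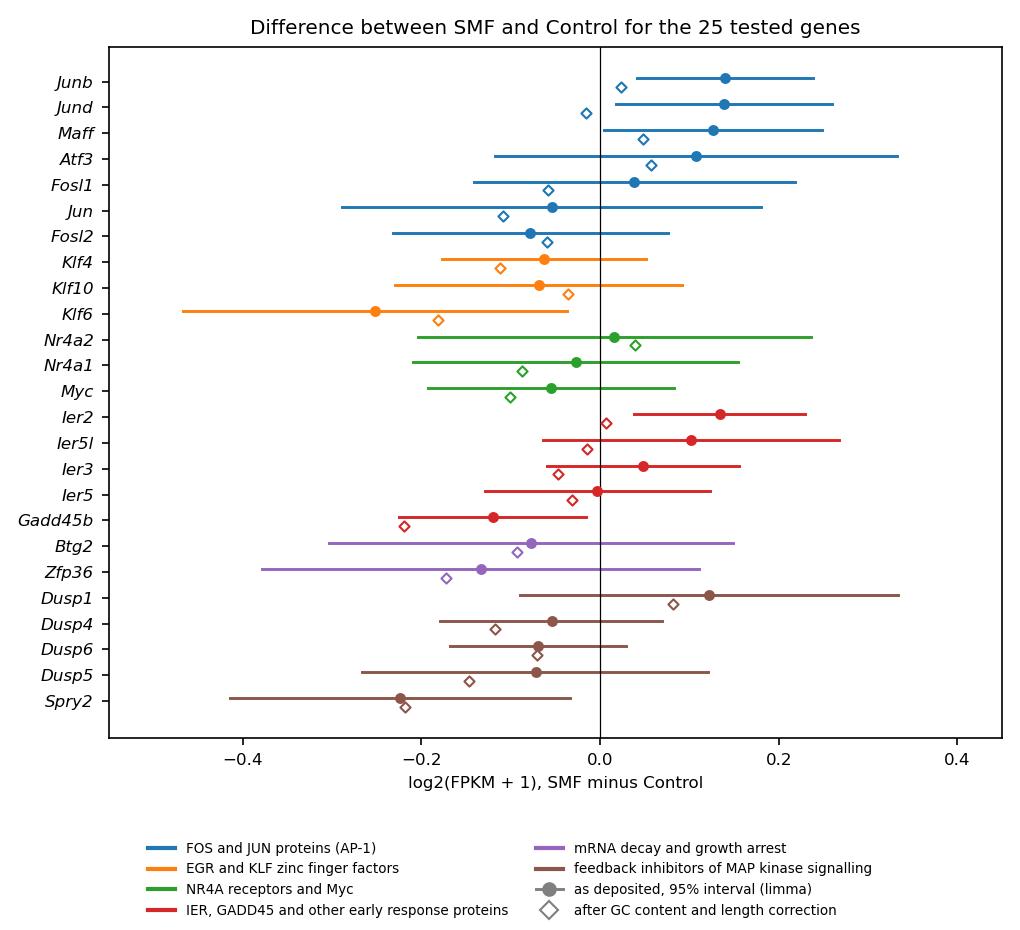
Difference in log2(FPKM + 1), SMF minus Control, for the 25 tested genes grouped by role, with circles and bars for the limma estimate and its 95% interval and open diamonds for the estimate after the composition correction (GC content and length). Every bar lies between -0.47 and 0.33, and the diamonds of Junb, Jund and Ier2 lie near 0.

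ERK induces many of the feedback inhibitors. Dusp6, which acts on ERK in the cytoplasm, was the most abundant of these at 38.39, 38.38 and 37.74 FPKM in untreated libraries and 34.51, 37.86 and 36.71 in exposed libraries. SMF 2 lay just above Control 4 and the others below every control, and the log2 difference was -0.07 (95% interval -0.17 to 0.03, limma adjusted p = 0.415). Dusp4, a nuclear phosphatase for ERK and JNK, stood at 24.8 ± 0.919 and 23.8 ± 1.48 FPKM, and Dusp5, a nuclear phosphatase for ERK, at 5.01 ± 0.621 and 4.70 ± 0.280. Of the exonic bases of Dusp5, 22.1% are shared with AC137853.2 on the opposite strand, itself at 0.30 to 0.33 FPKM as group means. Dusp1, an early phosphatase for p38 and JNK with a full CRE, measured 8.44, 6.75 and 6.42 FPKM in untreated libraries and 8.39, 7.64 and 7.63 in exposed libraries. Control 2 was the highest of the 6 and the groups overlapped (log2 difference 0.12, 95% interval -0.09 to 0.33). Dusp6 and Dusp4 together made up most of the DUSP transcripts, Dusp6 taking 50.8 ± 1.25% of the sum in untreated libraries and 49.9 ± 0.622% in exposed libraries.

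Sprouty proteins block RAS activation below receptor tyrosine kinases. Spry2 (ENSMUSG00000022114) measured 6.38, 6.56 and 6.27 FPKM in untreated libraries and 5.19, 6.16 and 4.75 in exposed libraries, so every SMF library lay below every control, SMF 2 by a small margin. The means were 6.403 ± 0.142 and 5.36 ± 0.721 FPKM from 168 to 249 reads a library, a log2 difference of -0.22 (SE 0.083, limma adjusted p = 0.229; limma-voom -0.26, adjusted p = 0.226). The correction for GC content and length left the Spry2 difference at -0.22 (limma adjusted p = 0.334). Spry4, under the filter, ranged from 0.64 to 0.79 FPKM in untreated libraries and 0.68 to 1.06 in exposed libraries. Spry1, from the wider list of feedback inhibitors, differed in the other direction. It measured 5.742, 4.727 and 5.415 FPKM in untreated libraries and 6.344, 6.094 and 7.162 in exposed libraries, with no overlap. Its log2 difference was 0.26 (limma adjusted p = 0.193; limma-voom 0.31, adjusted p = 0.0983). With the composition correction limma-voom gave 0.24 (adjusted p = 0.295). The contrast between Spry1 and Spry2 was not tested.

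**Figure D3:**
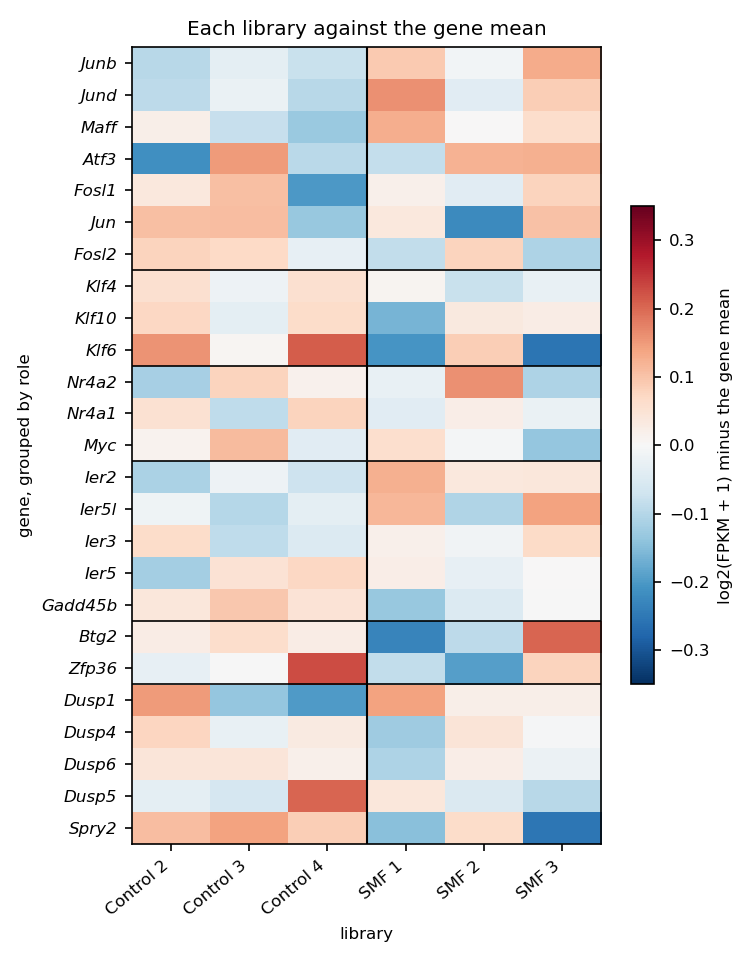
Deviation of log2(FPKM + 1) of each library from the mean of the 6, for the 25 tested genes grouped by role, with a vertical line between the 3 Control and the 3 SMF libraries. No library is high or low for all genes, with 12 to 16 of the 25 above their mean in each library.

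No library stood apart in its level over the 25 genes. The median deviation of the 25 genes from their own mean was 0.04, -0.001 and 0.01 in Control 2, 3 and 4, and 0.01, -0.01 and 0.02 in SMF 1, 2 and 3 on the log2 scale. Within groups the SD of log2(FPKM + 1) had a median of 0.09 for the 25 and 0.08 over all genes tested, from 0.04 to 0.16 among the 25.

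Which of the 25 lay above and which below 0 moved with base composition. Those above 0 had a median GC content of 58% and a median length of 2227.5 bases, and those below 0 had 53.3% and 3132 bases. All 4 of the 25 with a GC content of at least 60% (Jund, Ier5l, Junb and Ier2) were above 0, as were 6 of the other 21. The Spearman correlation of the log2 difference with GC content was 0.60 across the 25 and 0.49 across 11055 genes, and with length -0.40 and -0.36. Genes of 1 comparison share their libraries and are not independent. After the correction 6 of the 25 lay above 0 and 19 below (median -0.06, with 49.8% above 0 over all genes). By limma 4 of the 25 had an unadjusted p under 0.05, each lower (Gadd45b, Spry2, Klf4 and Klf6), and none passed over all genes. Of all genes 12.7% had such a p in either direction, and the share lower alone is not given here. Neither call by limma-voom held under the correction, where Junb was at 0.01 (adjusted p = 0.922) and Klf6 at -0.18 (adjusted p = 0.178) and 0.778% of all genes were called (0.552% higher and 0.226% lower). The correction has no term for group, so it removes any group difference that follows GC content or length, whatever its source. A smaller difference after it therefore does not tell these sources apart.

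**Figure D4:**
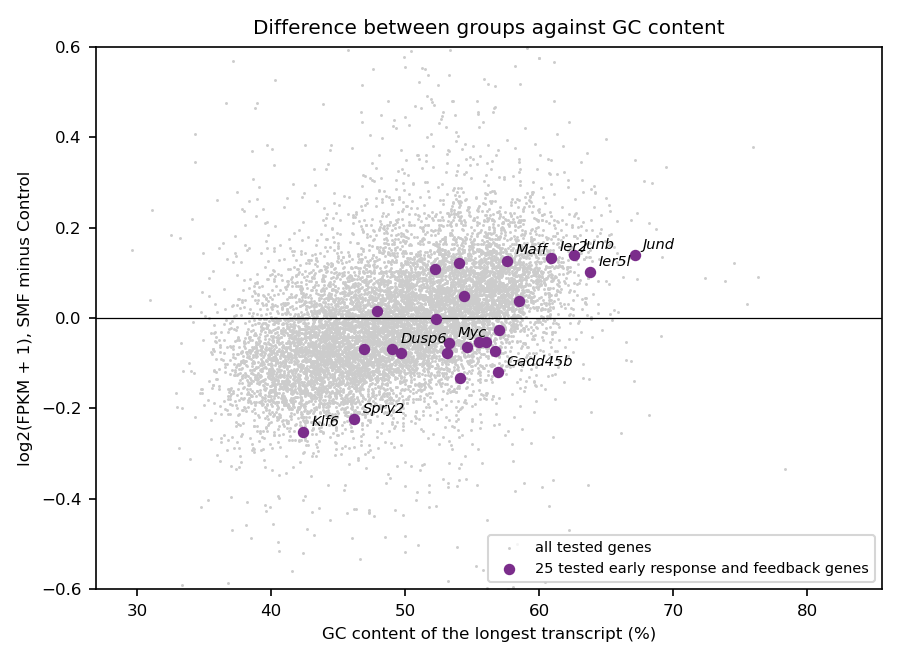
Difference in log2(FPKM + 1), SMF minus Control, against the GC content of the longest transcript for 11055 tested genes (grey; 101 lie outside the plotted range of -0.6 to 0.6) and the 25 genes (purple). Klf6 and Spry2 lie low at 42.4% and 46.2% GC, and Junb, Ier2, Jund and Ier5l lie above 0 at 60.9% to 67.1%.

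The wider pathway, in 8 lists, had no gene past limma over all genes, and limma-voom called 4 (Met, Ep300, Gadd45a and Trib1) of the 105 tested genes outside the 35, or 3.81%, against 4.57% of all genes. None of the 4 was called by limma-voom with the composition correction, which called 1 of the 105, Araf, against 0.778% of all genes. Each of the 4 calls was lost without some library, with adjusted p up to 0.271 for Met, 0.231 for Ep300, 0.123 for Gadd45a and 0.184 for Trib1, reached without Control 4 for Met and Gadd45a, without SMF 3 for Ep300 and without SMF 1 for Trib1. In the list of growth factor ligands and receptors, 10 of 13 were tested, 4 above 0 and 6 below (median -0.08). Areg, amphiregulin, a ligand of the epidermal growth factor receptor, measured 32.17, 36.58 and 35.47 FPKM in untreated libraries and 30.24, 30.2 and 31.56 in exposed libraries, with no overlap (log2 difference -0.17, limma adjusted p = 0.185). Met, the receptor of hepatocyte growth factor, stood at 27.9 ± 1.61 and 24.5 ± 1.93 FPKM (-0.18, limma adjusted p = 0.218; limma-voom -0.19, adjusted p = 0.0412). The groups overlapped for Met, and its difference was -0.11 after the composition correction (limma adjusted p = 0.404).

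All 19 genes of the RAS, RAF and ERK cascade were tested, 7 above 0 and 12 below (median -0.04). Mapk3, which encodes ERK1, stood at 83.3 ± 0.975 and 83.7 ± 2.75 FPKM (difference 0.006, 95% interval -0.08 to 0.09), and the adaptor Shc1 at 48.7 ± 0.738 and 48.9 ± 1.22. Araf, a RAF kinase, stood at 18.9 ± 1.005 and 20.5 ± 0.436 FPKM with no overlap (limma 0.11, adjusted p = 0.268; limma-voom 0.12, adjusted p = 0.162, and with the composition correction 0.20, adjusted p = 0.0464). Of the JNK and p38 cascades, all 12 were tested, 4 above 0 and 8 below (median -0.07). Mapkapk2, a kinase below p38, was higher in every SMF library, at 40.03 ± 0.984 and 43.2 ± 1.67 FPKM (0.11, limma adjusted p = 0.242, and after the composition correction 0.04, adjusted p = 0.701), and Mapk14, p38 alpha, stood at 32.5 ± 1.61 and 32.2 ± 2.14.

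For the regulators of SRF and CREB, 3 of 14 were above 0 and 11 below (median -0.04). Atf1, a CREB relative, stood at 19.9 ± 1.24 and 18.6 ± 0.413 FPKM, and Crtc2, a CREB coactivator released by calcineurin, at 19.6 ± 0.876 and 20.3 ± 1.204. The acetyltransferase gene Ep300 was called lower by limma-voom, at 12.8 ± 0.371 and 11.4 ± 0.659 FPKM (limma -0.16, adjusted p = 0.209; limma-voom -0.17, adjusted p = 0.0422, and with the composition correction -0.10, adjusted p = 0.271). Of 8 further AP-1 partners 6 were tested, 2 above 0 and 4 below (median -0.02). Jdp2, a repressor of AP-1, was higher in every SMF library, at 13.5 ± 0.963 and 15.2 ± 0.306 FPKM (0.16, limma adjusted p = 0.209, and after the composition correction 0.08, adjusted p = 0.6003), and Mafg stood at 27.5 ± 0.857 and 26.9 ± 0.913.

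Other phosphatases and receptor feedback inhibitors divided as 7 above 0 and 8 below (median -0.01), the most abundant being Dusp3, at 16.9 ± 0.877 and 16.9 ± 0.644 FPKM, and Dusp14, at 14.1 ± 1.46 and 13.5 ± 0.917. Spry1, also of this list, is given with Spry2 above. ERK output transcripts, a list that shares Fosl1, Spry2, Spry4, Dusp4 and Dusp6 with the 35 genes, had 10 of 11 tested, 5 above 0 and 5 below (median -0.01). Ccnd1, cyclin D1, stood at 235 ± 5.62 and 227.2 ± 4.15 FPKM (-0.05, 95% interval -0.13 to 0.03) and the receptor Epha2 at 71.7 ± 3.95 and 72.9 ± 3.02.

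In the list of other early response genes, 23 of 24 were tested, 6 above 0 and 17 below (median -0.06), and limma-voom called 1 higher and 1 lower, where it called 2.18% of all genes higher and 2.39% lower. Gadd45a, a growth arrest gene related to Gadd45b, was called higher. It measured 36.64, 37.94 and 38.31 FPKM in untreated libraries and 46.11, 46.39 and 41.64 in exposed libraries (limma log2 difference 0.24, adjusted p = 0.147; limma-voom 0.24, adjusted p = 0.0227). Trib1, a pseudokinase that directs protein degradation, was called lower, at 8.43 ± 0.497 and 7.08 ± 0.317 FPKM (limma -0.22, adjusted p = 0.164; limma-voom -0.25, adjusted p = 0.0406). The groups did not overlap for either gene. Gadd45a and Gadd45b had differences of opposite sign, and the contrast between them was not tested. With the composition correction limma-voom gave 0.20 for Gadd45a (adjusted p = 0.0917) and -0.26 for Trib1 (0.0543). The most abundant of this list, Ccn2, a target of SRF and YAP, stood at 83.4 ± 3.07 and 80.1 ± 6.41 FPKM, and Ets2, an ERK-responsive factor, at 70.4 ± 0.450 and 66.9 ± 1.24.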

How the data were processed

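Poly(A) RNA of 3 untreated and 3 exposed AML12 libraries was sequenced after oligo(dT) capture and random priming, per the labels' protocols. No strand marking is stated. The authors deposited FPKM values, 1 file per library, and per the submitters' processing notes the build was GRCm39 and the tools included Bowtie2 2.2.3 and HISAT2 2.1.0, whose roles are not stated. The counting step and its annotation were not given in the sources used here. Symbols came from GENCODE M21 (GRCm38) for 23521 of 23886 identifiers, as did gene length and transcript GC content. Coordinates are given only for the promoter windows, on build GRCm38.p6.

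Groups and replicate numbers came from sample titles. The main test was limma 3.58.1 in R 4.3.3, two-sided and with its prior variance following the mean level, fitted to log2(FPKM + 1) of genes with at least 1 FPKM in at least 3 libraries, with Benjamini-Hochberg adjustment over all of them and a threshold of 0.05. FPKM values proved to be whole reads scaled by gene length and library total. Reads came out whole, within 0.02, for 21823 of 22004 genes above 0. Of these, 500 took the smallest length that gave whole reads in place of the M21 length, Jund (1667 bases for 1668) and Ier2 (1524 for 1522) among them. A single read on a gene of 1 kb makes 0.0549 to 0.0645 FPKM. These reads went to limma-voom. The composition correction was a loess on GC content and length (span 0.3) within each library, with no term for group, and left out 59 genes. The corrected and leave-one-out limma-voom fits were added after the data were seen. Other alternatives changed the pseudocount, filter, scaling, trend and replicate block, or left out a library.

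The 35 genes and the lists were chosen with earlier results of these data known. The named genes were every member by role and, of each list, those past the threshold or else the 2 most abundant. Genes called by limma-voom alone, Araf included, and Spry1 were named after their values were seen. Promoter windows were the 250 bases before RefSeq starts. Figures used matplotlib 3.10.9 in Python 3.11.15.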

Additional observations from a re-analysis of the deposited data

How the results depend on the processing

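Of the 25 members tested, none was called under any alternative of the limma test, while limma-voom called 2. Over all genes limma called 0, with 1998 at an unadjusted p under 0.05, against 508 for limma-voom, 8 with a filter at 5 FPKM, 19 with the replicate block, and 0 to 3 with 1 library left out. The cause was not tested. The limma-voom counts fell to 86 genes and 0 members after the composition correction, and with 1 library left out ran from 8 (without Control 4) to 1462 (without SMF 2) genes and from 0 to 3 members. Without Control 2, Control 4, SMF 1 or SMF 3, limma-voom called none of the members and 228, 8, 59 and 77 genes. Of the members limma-voom called Klf6 alone without Control 3, where the count over all genes is not given here. Its adjusted p for Junb ran from 0.00286 (without SMF 2) to 0.279 (without SMF 3), and for Klf6 from 0.000459 to 0.272 with the same libraries left out. The log2 fold of Junb (0.110 to 0.181) and of Klf6 (-0.376 to -0.189) kept its sign throughout.

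The replicate block uses the numbers 2 and 3 that both groups share. Deviations of same-numbered libraries correlated at 0.058 and 0.046, so the numbers are not taken as pairs, and with the block the member median was 0.011 against -0.054 without it. Rescaling to TPM reversed the sign of the difference for Nr4a2 (-0.012), Mapk3 (-0.028), Shc1 (-0.025) and Epha2 (-0.009). Median-of-ratios scaling reversed the sign of the difference for Ier5 (0.006) and Dusp3 (0.003). The composition correction reversed the sign of the difference for Fosl1 (-0.058), Jund (-0.016), Ier3 (-0.047), Ier5l (-0.015), Mapk3 (-0.079), Shc1 (-0.001), Dusp3 (0.011) and Epha2 (-0.024). The replicate block reversed the sign of the difference for Fosl1 (-0.052), Klf10 (0.011), Nr4a1 (0.018), Ier5 (0.019), Btg2 (0.013), Mapk3 (-0.018), Dusp3 (0.016) and Epha2 (-0.022). With 1 library left out the sign turned for Nr4a2 (-0.06 to 0.074), Shc1 (-0.005 to 0.028), Dusp3 (-0.047 to 0.022), Dusp14 (-0.125 to 0.016), Ier5 (-0.063 to 0.032), Mapk14 (-0.051 to 0.038), Fosl1 (-0.052 to 0.1), Nr4a1 (-0.078 to 0.005), Dusp5 (-0.121 to 0.011), Mapk3 (-0.011 to 0.033), Epha2 (-0.005 to 0.068), Btg2 (-0.199 to 0.018), Jun (-0.134 to 0.043) and Ccn2 (-0.113 to 0.001). None of these was called in any of those fits. Rescaling to TPM moved the median of all genes from -0.010 to -0.040.

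Depth limits the 10 untested members, of which Egr1 and Spry4 had the most reads (at most 87 in a library).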
